A study of Mus musculus with 5 samples.

Results

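Clones 9L and 24L were each grown from 1 sorted cell of Ocy454, an established osteocyte-like line from mouse bone, and both carry the label of low Sost expression. Sost encodes sclerostin, a Wnt inhibitor that osteocytes secrete. The genes described here are the 8195 of 23185 named genes (35.3%) whose expression was 6 or more on the log2 scale in 9L or in 24L, and the quantity given for each is the value in 9L minus the value in 24L. The labels state that Sost was screened in 37 clones at 7 days of culture, and 1 Affymetrix array was run for each of 5 of them, the low-Sost clones 4L, 9L and 24L and the high-Sost clones 12H and 15H. All 5 clones were grown at 37 °C in alpha-MEM with fetal bovine serum and received no treatment. The other 3 clones serve here only as background. The labels name no transgene and no deletion. Each group is a set of clones, and each clone descends from 1 cell of the same line.

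With 1 array per clone no difference has a replicate, so no p-value or standard error is given. Differences between the clones, between their cultures and between the arrays cannot be told apart. In RNA from a whole culture, fewer cells with a transcript and less of it per cell cannot be told apart either. Values are comparable between clones for 1 gene but not between genes. A gene is called 2-fold apart where the log2 difference is 1 or more in either direction, which is a description of these 2 arrays.

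Osteocytes are osteoblasts that have become buried in the bone matrix they made. They secrete regulators of bone formation and of osteoclasts, and they keep part of the osteoblast's matrix program, which consists of type I collagen, small proteoglycans and phosphate-handling proteins. Matrix proteins fold in the endoplasmic reticulum, where chaperones of the unfolded protein response serve them. Clones raised from single cells of 1 line can keep different stable patterns of expression, and the comparison asks how far 2 clones chosen for the same low Sost differ in the rest of their genes.

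Sost, which chose the clones, read 3.89 in 9L and 3.91 in 24L, against 3.78 in 4L, 4.08 in 12H and 3.92 in 15H. All 5 readings were low and close together, with 15H and 24L almost level. The late osteocyte genes were under the level of 6 in both clones. Dmp1, a matrix protein of mineralizing osteocytes, read 2.54 in 9L and 2.90 in 24L, Phex, an endopeptidase of phosphate balance, read 2.60 and 3.17, and Mepe, another matrix protein, read 2.90 and 3.05. Fgf23, the phosphate hormone of bone, read 3.14 and 3.29, and Dkk1, a Wnt inhibitor, 3.46 and 3.57. Bglap, which encodes osteocalcin, read 4.18 in 9L and 3.45 in 24L. Tnfsf11, which encodes the osteoclast factor RANKL, read 3.69 in both. Of 18 osteoblast markers measured, 14 were at 6 or more in either clone, and the lowest reading in that list was 3.00. Bglap, given above, is also in that list and was under the level. Alpl and Sparc were among the markers well above it. Alpl, the alkaline phosphatase of bone, read 10.93 in 9L and 10.36 in 24L, and Sparc, which encodes osteonectin, read 11.84 and 12.06. Of 20 measured markers of skeletal muscle, 16 of blood and endothelium and 16 of epithelium, 0 reached 6 in either clone.

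Genes 2-fold apart between 9L and 24L numbered 382, which is 4.66% of the 8195. Of these, 176 (2.15%) were higher in 9L and 206 (2.51%) were higher in 24L. Among the 176, 85 were at 6 or more in both clones and 91 reached the level only in 9L, where they had to be high to be included. The 206 divide into 103 at 6 or more in both clones and 103 that reached it only in 24L. At 4-fold the counts were 34 higher in 9L and 39 higher in 24L, and at 8-fold 12 and 11. The median difference over all 8195 genes was 0.01, the quartiles were -0.22 and 0.27, and 95% of the differences lay between -1.0 and 0.93. Nrde2 was the gene nearest the level from inside, at 5.87 in 9L and 6.0002 in 24L, and 1700096K18Rik the nearest outside it, at 5.31 and 5.999.

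**Figure D1:**
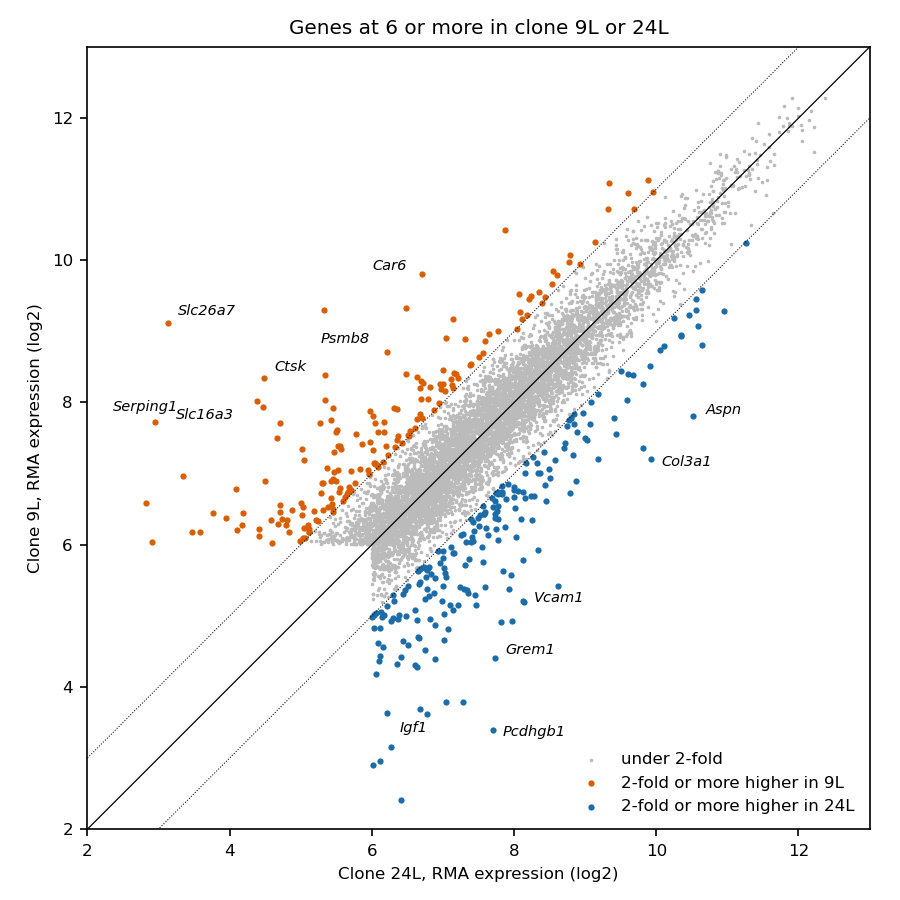
RMA expression (log2) of 8195 genes in clone 24L (horizontal axis) and clone 9L (vertical axis), 1 point per gene; the solid line marks equal values and the dotted lines a 2-fold difference. Most genes lie between the dotted lines, 176 lie above them and 206 below.

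Set among the 10 pairs that the 5 clones form, each with the same level of 6 in either clone, 9L and 24L were not the closest. The high-Sost clones 12H and 15H had 234 genes 2-fold apart (2.89%), and 9L and 15H, which carry different Sost labels, had 303 (3.72%). The pair of 15H and 24L had 498 (6.07%). Against the other low-Sost clone, 4L, 24L had 525 (6.4%) and 9L had 692 (8.37%). Clone 12H had 553 genes apart from 9L (6.74%) and 666 from 24L (8.08%). The counts of 4L against the high-Sost clones were 715 with 15H (8.66%) and 1035 with 12H (12.5%). These pairs share clones and are not independent of one another. By this count, 9L stood nearer to the high-Sost clone 15H than to 24L, and 24L nearer to 9L than to any other clone. By the median absolute difference 24L was nearer to 15H (0.21) than to 9L (0.24).

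**Figure D2:**
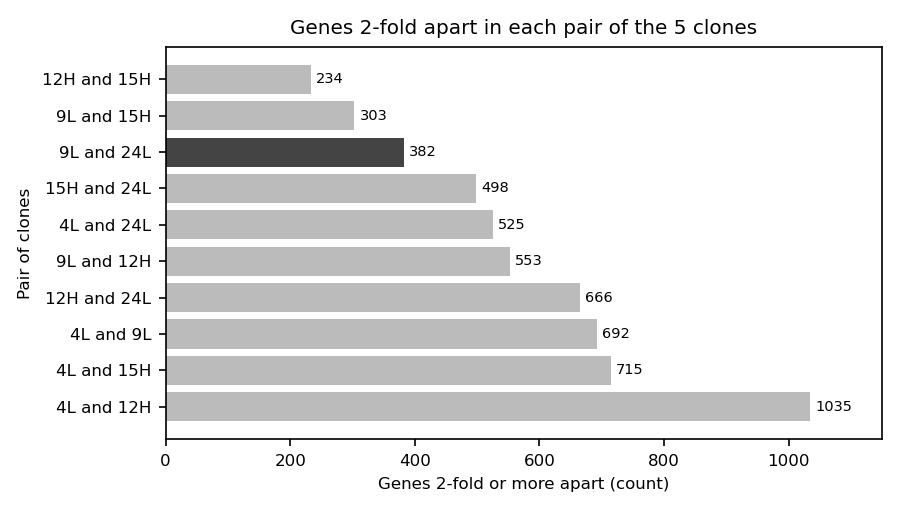
Count of genes 2-fold or more apart (horizontal axis) in each pair of the 5 clones (vertical axis), 1 array per clone, among genes at 6 or more in either clone of the pair. The 9L and 24L pair, in dark grey, holds 382 genes, between 234 for 12H and 15H and 1035 for 4L and 12H.

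Most genes with the largest differences read under 6 in the lower clone. Slc26a7, an anion exchanger of kidney and stomach epithelium (Entrez gene 208890, chromosome 4), read 9.12 in 9L and 3.13 in 24L, against 3.00 in 4L, 6.83 in 12H and 4.56 in 15H. The difference of 5.99 (63.5-fold) was the widest measured, with the high-Sost clones between them. Markers of skeletal muscle, blood, endothelium and epithelium read up to 5.99, so a lower reading may hold no signal, and folds against one are uncertain in size and order. Serping1, the inhibitor of complement C1 (Entrez gene 12258, chromosome 2), read 7.73 in 9L and 2.94 in 24L, 27.5-fold apart, and the other 3 clones read 2.33 to 2.94, so it was high in 9L alone. Slc16a3, the lactate exporter MCT4, had the same form, with 7.94 in 9L, 4.47 in 24L and 4.02 to 5.08 elsewhere, 11.1-fold apart. Robo1, a receptor for Slit guidance proteins, read 6.04 in 9L and 2.81 to 2.96 in the other 4 clones. Slco2a1, a prostaglandin transporter, read 7.71 in 9L and 4.56 to 4.87 in the other 4. Actg2, the smooth muscle gamma actin, read 7.51 in 9L, 4.67 in 24L and 2.51 to 2.74 in the rest.

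Other genes of the same direction set 9L with the high-Sost clones and 24L with 4L. Ctsk, the collagen-degrading protease cathepsin K, read 8.35 in 9L, 7.85 in 12H and 8.02 in 15H, against 4.48 in 24L and 3.50 in 4L, and 9L exceeded 24L 14.6-fold. Dapk1, a death-associated protein kinase, read 6.58 in 9L, 6.46 in 12H and 6.19 in 15H, against 2.82 in 24L and 2.74 in 4L. Adgrd1, an adhesion G protein-coupled receptor, read 6.96 in 9L, 8.02 in 12H and 7.83 in 15H, against 3.34 in 24L and 3.92 in 4L. For these 3 genes the clones fell into the same sets, with 9L on the high side. In a further pattern 24L alone was low. Car6, a secreted carbonic anhydrase, read 6.71 in 24L and 8.54 to 9.80 in the other 4 clones, and Tinagl1, a basement membrane protein, read 6.49 in 24L and 8.09 to 9.35 elsewhere. The remaining genes among the 15 largest were Ndufa4l2, a mitochondrial protein induced in hypoxia (15.8-fold), Selenbp1, a selenium-binding enzyme (12.4-fold), Prxl2a, a peroxiredoxin-like protein (8.22-fold), and Adhfe1, a mitochondrial oxidoreductase (6.53-fold).

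Among genes higher in 24L, several were high in that clone alone. Grem1, the secreted BMP antagonist gremlin (Entrez gene 23892, chromosome 2), read 7.73 in 24L and 4.41 in 9L, against 4.22 in 4L, 4.41 in 12H and 4.22 in 15H, a 9.96-fold difference. Fbn2, the microfibril protein fibrillin 2, read 7.04 in 24L and 3.03 to 3.79 in the other 4 clones, 9.48-fold above 9L. Other genes were high in both 24L and 4L. Perp, a p53-induced junction protein, read 7.29 in 24L and 8.88 in 4L, against 3.79 in 9L, 3.31 in 12H and 3.44 in 15H. Vcam1, the adhesion receptor of the vessel wall and bone marrow stroma, read 8.14 in 24L and 8.11 in 4L, against 5.19 in 9L, 4.53 in 12H and 4.97 in 15H. Lamb1, the laminin beta-1 chain, read 7.97 in 24L and 7.99 in 4L, against 4.93, 5.04 and 5.93. Igf1, the bone growth factor, read 6.68 in 24L and 5.70 in 4L, against 3.69 in 9L, 2.69 in 12H and 2.86 in 15H. Perp, Vcam1, Lamb1 and Igf1 come from the 15 largest differences. Over all 206 genes 2-fold higher in 24L, 4L was nearer to 24L in 109 (52.9%).

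Slc6a15, a transporter of neutral amino acids, divided the clones in another way. It read 6.41 in 24L and 6.57 in the high-Sost clone 12H, whereas 9L read 2.40, 4L 2.19 and 15H 2.16, a 16.1-fold difference between 9L and 24L. Cd24a, a glycosylated surface protein, was low in 9L alone, at 5.21 against 8.12 in 24L and 7.17 to 7.91 in the other 3. Pcdhgb1, a gamma-protocadherin on chromosome 18, had the largest difference of this direction, with 3.39 in 9L and 7.70 in 24L, 19.8-fold apart. Gamma-protocadherin transcripts share their constant exons, so the value of 1 member is uncertain. The rest of the 15 were Ptprk, a receptor tyrosine phosphatase (9.19-fold), Mecom, a zinc-finger transcription factor (8.92-fold), Rab39b, a vesicle GTPase (8.9-fold), Arhgap24, a Rac-inactivating protein (8.69-fold), Slc40a1, the iron exporter ferroportin (8.68-fold), and Slc9a9, an endosomal sodium/proton exchanger (7.51-fold).

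**Figure D3:**
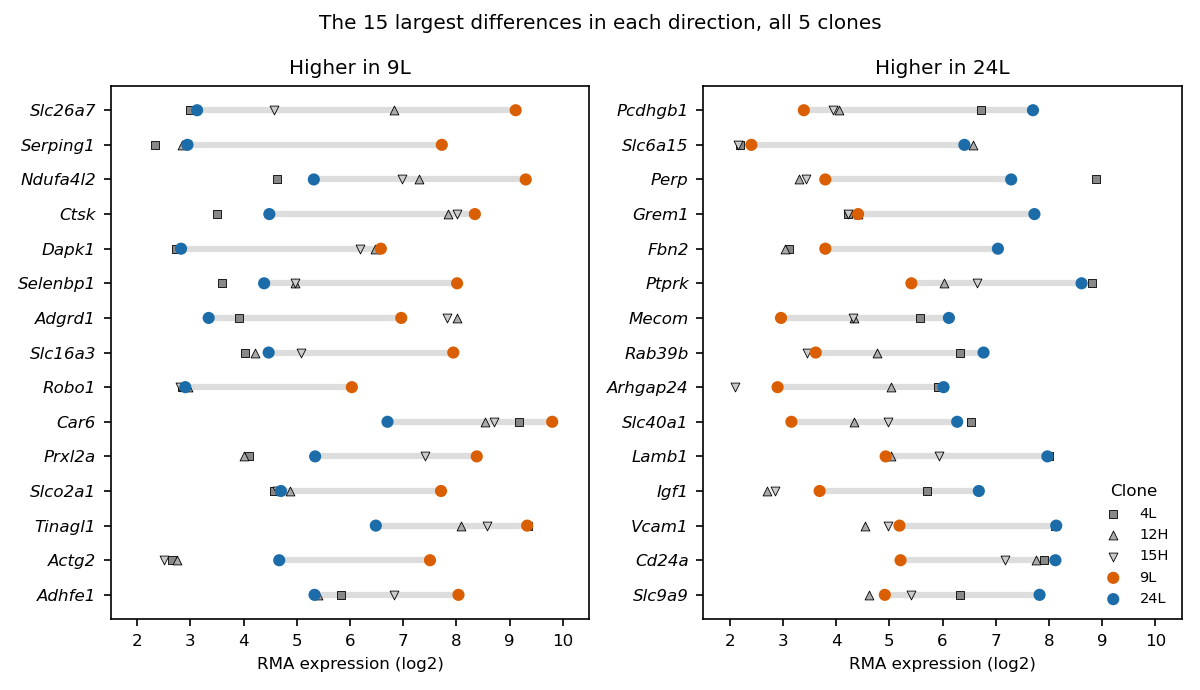
RMA expression (log2, horizontal axis) of the 15 genes with the largest differences in each direction in all 5 clones, 1 array each; grey bars join 9L and 24L. Serping1 and Robo1 are high in 9L alone, Grem1 and Fbn2 in 24L alone, and Vcam1 and Lamb1 in 24L and 4L together.

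The place of both clones against the range of 4L, 12H and 15H was counted for all 382 genes. Of the 176 genes higher in 9L, 76 had 9L alone outside that range, above it. In 21 genes 24L alone was outside it, below it, and in 37 genes 9L lay above and 24L below. Of the 206 genes higher in 24L, 95 had 24L alone outside, above the range, 29 had 9L alone outside, below it, and 29 had the clones on opposite sides. In sum only 9L was outside in 105 genes, only 24L in 116, both in 97 and neither in 64. Counting a clone as outside only where it passed the range by more than 0.5 gave 91, 108, 16 and 167. Neither clone was outside in 2638 of all 8195 genes (32.2%). A difference of 2-fold makes it harder for both clones to lie within the range, so these shares describe the genes and nothing more.

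The other clones took sides unequally. For the 206 genes higher in 24L, 12H was nearer to 9L in 164 (79.6%) and 15H in 166 (80.6%), while 4L was nearer to 24L in 109 (52.9%). For the 176 genes higher in 9L, 4L was nearer to 24L in 127 (72.2%), 12H was nearer to 24L in 103 (58.5%) and 15H nearer to 9L in 96 (54.5%). Over the 7942 genes with any difference, 4L was nearer to 24L in 55.3%, 12H nearer to 9L in 50.2% and 15H nearer to 9L in 53.1%. Genes chosen for a high reading in 1 clone leave the other clones more often near the lower one, so these shares support nothing further. Neighbouring genes and genes of 1 pathway are not independent counts.

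Many extracellular matrix genes read higher in 24L. Of 35 collagen genes measured, 13 were at 6 or more in either clone. Their median difference was -0.97, with 12 of 13 lower in 9L, 6 of them 2-fold lower and 0 of them 2-fold higher, against a median of 0.01 and shares of 2.51% and 2.15% over all genes. With no filter on level, over all 35, the median was -0.20. In 24L, 9 of the 13 stood above all of 4L, 12H and 15H, as 21.8% of all genes did. Col3a1, the type III fibrillar collagen of soft connective tissue (Entrez gene 12825, chromosome 1), read 9.92 in 24L and 7.20 in 9L, against 6.23 in 4L, 5.29 in 12H and 4.95 in 15H, a 6.59-fold difference. Both chains of the pericellular type VI collagen that lie next to each other on chromosome 10 were higher in 24L. Col6a1 read 10.64 in 24L and 8.81 in 9L, with 8.76 to 9.25 elsewhere, and Col6a2 read 8.86 and 6.89, with 6.37 to 7.35 elsewhere. Col6a1 and Col6a2 were thus high in 24L alone. Col12a1, a fibril-associated collagen, read 9.59 in 24L, 8.03 in 9L and 6.54 to 7.40 in the others. Col1a1 and Col1a2, the chains of the main bone collagen, were just short of 2-fold, with 11.64 and 11.05 in 24L against 10.67 and 10.24 in 9L. For Col1a1, 24L stood above both high-Sost clones, at 11.49 and 11.30. For Col1a2, 24L lay between them, with 11.19 in 12H and 10.96 in 15H. Only Col5a2 read higher in 9L, at 8.90 against 8.75.

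Small leucine-rich proteoglycans coat collagen fibrils and set their spacing. Of 13 measured, 6 were at 6 or more in either clone, and all 6 read lower in 9L, with a median difference of -1.18, which was -0.31 over all 13 and -0.70 over those with a mean of 6 or more in the other 3 clones. The 3 that were 2-fold lower, against 2.51% of all genes, lie in 1 neighbourhood of chromosome 13 and are not independent of each other. Aspn, which encodes asporin, read 7.80 in 9L and 10.52 in 24L, against 7.57 in 4L, 1.76 in 12H and 3.53 in 15H. Omd, which encodes osteomodulin, read 7.35 in 9L and 9.81 in 24L, against 8.67, 6.56 and 6.05. Ogn, which encodes osteoglycin, read 9.29 and 10.96, against 10.07, 7.93 and 8.51. All 3 read highest in 24L, and for Omd and Ogn 4L came next, ahead of 9L. Bgn, which encodes biglycan, Fmod, which encodes fibromodulin, and Prelp differed less, by -0.70, -0.31 and -0.55.

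Genes of matrix assembly and cross-linking had a median difference of -0.45 over 28 genes. Of these, 7 were 2-fold lower in 9L and 0 2-fold higher, against 2.51% and 2.15% of all genes. After Fbn2, the largest were Fbln5, the elastic-fibre protein fibulin 5 (7.56 in 9L and 9.43 in 24L), Vcan, the large proteoglycan versican (5.42 and 7.01), and Thbs2, thrombospondin 2 (8.26 and 9.81). Postn, which encodes periostin, read 11.27 in 24L and 10.08 to 10.28 in the other 4 clones. In 18 of the 28 genes 24L stood above all of 4L, 12H and 15H, and in 9 genes 9L did. These shares were 21.8% for 24L and 25.1% for 9L over all genes, so the count for 9L was near its share. The median was -0.28 with 6 or more required in both clones. Among 18 metalloproteases and their inhibitors the median was -0.08. Mmp2, gelatinase A, read 9.08 in 9L and 10.59 in 24L, Timp1, an inhibitor of metalloproteases, read 7.84 and 8.85, and Adamts5, an aggrecanase, read 6.90 and 5.50. Cathepsin K, described above, was the 1 gene of 18 lysosomal and perilacunar genes that was 2-fold apart, against 4.66% of all genes. That list's median was 0.25.

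**Figure D4:**
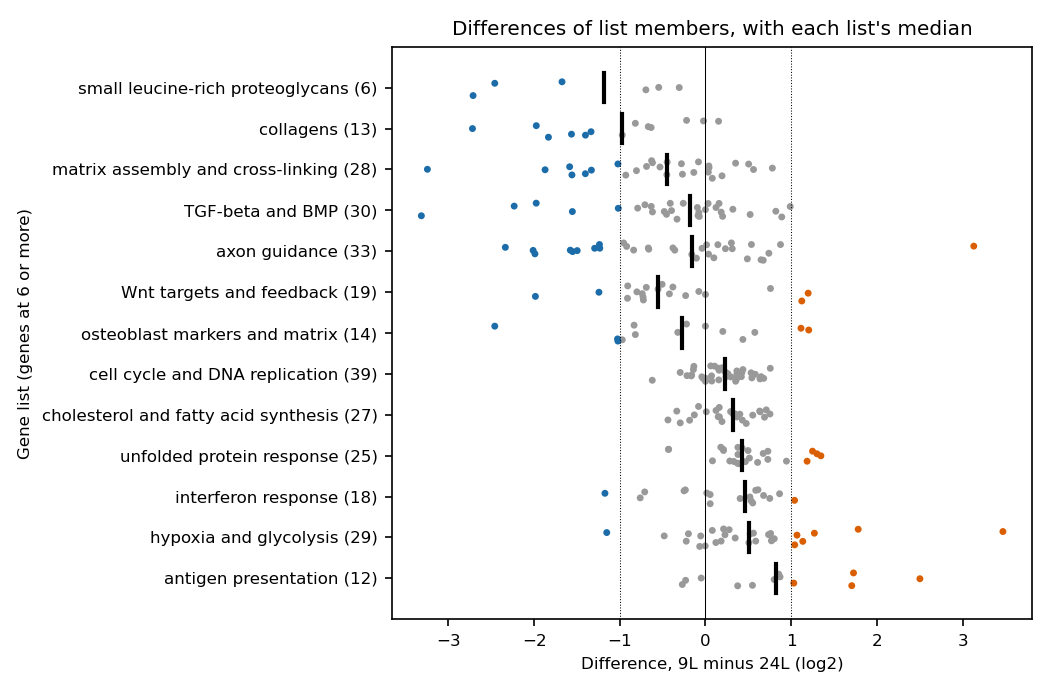
Difference in log2 expression, 9L minus 24L (horizontal axis), of each gene at 6 or more in either clone in 13 gene lists (vertical axis, number of genes in brackets); black bars are list medians and coloured points are 2-fold or more apart. Collagens and small proteoglycans lie mostly on the 24L side, and unfolded protein response, hypoxia and antigen presentation genes mostly on the 9L side.

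Genes of the unfolded protein response, which adjusts the folding capacity of the endoplasmic reticulum, read higher in 9L. All 25 measured genes were at 6 or more, 23 of them higher in 9L and 2 lower, with a median difference of 0.43, and 4 of them were 2-fold higher against 2.15% of all genes. In 14 genes 9L stood above all of 4L, 12H and 15H, and in 11 genes 24L stood below all of them, against 25.1% and 23.6% of all genes. Creld2, an ER-resident protein of the folding machinery (Entrez gene 76737, chromosome 15), read 10.95 in 9L and 9.60 in 24L, against 9.95 in 4L, 9.51 in 12H and 10.38 in 15H. Edem1, which marks misfolded glycoproteins for disposal, read 9.85 and 8.55, against 8.48, 9.84 and 9.43. Pdia4, a disulfide isomerase, read 11.13 and 9.88, against 9.88, 10.73 and 11.01, and Sdf2l1, a chaperone cofactor, read 9.79 and 8.60, against 8.50, 8.47 and 9.61. For Edem1 and Pdia4 clone 24L was level with 4L, and 9L was level with or just above the high-Sost clones. The best-known chaperones were under 2-fold apart. Hspa5, which encodes BiP, read 12.28 in 9L and 11.90 in 24L, and Hsp90b1, which encodes GRP94, read 11.93 and 11.43. Ern1 and Chac1 read lower in 9L, by -0.43 each, and the first encodes the sensor IRE1. For the related list of ATF4 targets and amino acid genes the median was -0.08 over 23 genes. In that list 0 genes were 2-fold apart, against 4.66% of all genes.

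The endoplasmic reticulum stress response element (ERSE, CCAAT, then 9 bases of any kind, then CCACG, on either strand) is the textbook sequence through which ATF6 acts on chaperone genes. It was searched for in RefSeq promoter windows of GRCm38.p6, from 250 bases before to 50 bases after each start site. Of the 25 genes 22 had a window, and 7 of these 22 (31.8%) held the sequence. It stood in 39 of all 32851 windows (0.119%) and in 13 of 8304 windows of the genes compared (0.157%). The element is known from chaperone genes like those listed, so this excess is not a result of these data. The stretches of 4 of the 7 genes are shown, read 5′ to 3′ in the direction of transcription, with the fixed letters of the element in capitals. They show that the element stands in both orientations, close before the start, and in genes with larger and smaller differences alike.
Creld2 (chr15:88819508-88819550, plus strand): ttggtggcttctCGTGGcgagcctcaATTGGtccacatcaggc
Dnajc3 (chr14:118937815-118937857, plus strand): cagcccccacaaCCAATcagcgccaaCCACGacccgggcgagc
Pdia6 (chr12:17266479-17266521, plus strand): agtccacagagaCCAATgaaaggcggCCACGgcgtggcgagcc
Hspa5 (chr2:34772013-34772055, plus strand): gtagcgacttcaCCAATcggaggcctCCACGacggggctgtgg

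The element begins 126 bases before the start in Creld2, 105 in Dnajc3, 98 in Pdia6 and 65 in Hspa5. The differences of these genes were 1.35, 0.95, 0.61 and 0.38. Dnajc3 encodes the co-chaperone P58IPK and Pdia6 a disulfide isomerase. The 7 genes with the element had a median difference of 0.50, and the 15 without it 0.33. Edem1, Pdia4 and Sdf2l1 were among those without it in this window. A match is a description of the letters and not of binding.

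Hypoxia and glycolysis genes also read mostly higher in 9L. Of 34 measured, 29 were at 6 or more, 22 of them higher in 9L and 7 lower, with a median difference of 0.51. Of the 29, 6 were 2-fold higher in 9L and 1 2-fold lower, against 2.15% and 2.51% of all genes. Clone 9L stood above 4L, 12H and 15H in 22 of the 29 genes, and 24L did so in 16. Over all 8195 genes 9L stood above them in 25.1% and 24L in 21.8%. The list's median was 0.25 with 6 or more required in both clones. Besides Slc16a3, the genes with the widest gaps were Aldoc, the aldolase C isozyme of glycolysis, with 7.34 in 9L and 5.56 in 24L against 3.97 to 4.72 in the other 3 clones, and Egln3, an oxygen-sensing prolyl hydroxylase, with 8.27 and 6.99 against 6.03 to 7.40. Bnip3, a mitophagy receptor, Car9, a membrane carbonic anhydrase, and Slc2a3, a glucose transporter, were also 2-fold higher and were named after their values were seen. They read 8.54, 6.78 and 7.27 in 9L and 7.40, 5.71 and 6.23 in 24L. Pgam1, a phosphoglycerate mutase, went the other way, with 7.00 in 9L and 8.16 in 24L. Of other glycolytic genes, Pgk1, Pkm and Ldha differed by 0.00, -0.20 and 0.21. Pfkm, Eno2, Tpi1 and Pfkp read higher in 9L, by 0.35, 0.52, 0.74 and 0.76. Hk1, Hk2 and Pfkl read lower in 9L, by -0.22, -0.07 and -0.06. Slc2a4, the insulin-responsive glucose transporter, was in no list and was named after its values were seen. It read 6.45 in 9L and 3.77 to 4.10 in the other 4 clones.

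The core of the hypoxia response element (ACGTG on either strand) was searched for in the same windows, where it is common. It stood in 22 of 39 windows of the list (56.4%), which belong to 20 of 26 genes. The shares were 19.6% of all windows and 27.4% of windows of the genes compared. The core is known from hypoxia genes like those listed, so this excess is not a result of these data. The stretches below belong to the lactate exporter with the widest gap in the list and to 3 further genes 2-fold higher in 9L, with 1 match of each window in capitals.
Slc16a3 (chr11:120949035-120949066, plus strand): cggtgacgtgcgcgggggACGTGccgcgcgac
Bnip3 (chr7:138909591-138909631, minus strand): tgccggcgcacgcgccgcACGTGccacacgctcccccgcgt
Car9 (chr4:43506990-43507025, plus strand): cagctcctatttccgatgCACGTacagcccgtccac
Egln3 (chr12:54204081-54204121, minus strand): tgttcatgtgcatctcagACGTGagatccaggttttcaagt

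The 20 genes with the core had a median difference of 0.24 and the 6 without it 0.63. The widest gap without it was that of Kdm3a, at 0.80. Slc16a3, Aldoc, Egln3, Bnip3 and Car9, with differences of 1.07 to 3.47, all held the core. Whether the letters go with the size of the difference was not tested. Pgam1, 2-fold lower in 9L, also held the core.

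Antigen presentation genes, which serve to show peptides at the cell surface, had a median difference of 0.83 over 12 genes. They were mostly of the MHC class I pathway, but with the class II invariant chain gene Cd74 (0.80) among them. Of the 12, 4 were 2-fold higher in 9L and 0 2-fold lower, against 2.15% and 2.51% of all genes. Psmb8, a catalytic subunit of the immunoproteasome (Entrez gene 16913, chromosome 17), read 8.72 in 9L and 6.21 in 24L, against 5.44 in 4L, 5.89 in 12H and 7.87 in 15H. The class I heavy chains had another pattern. H2-K1 read 8.36 in 9L, 8.50 in 4L, 8.36 in 12H and 8.39 in 15H, and 6.64 in 24L. H2-Q4 read 7.07 in 9L, 6.31 to 6.43 in the other 3 and 5.37 in 24L, and H2-D1 read 10.71 in 9L, 10.76 to 11.57 in the other 3 and 9.68 in 24L. In each of these 3 genes 24L was below all other clones. Class I genes are near-identical copies, so the probes may not separate them, and they lie in 1 region of chromosome 17. The light chain gene B2m differed by 0.38. Interferon response genes, a related list, had a median of 0.46 over 18 genes and of 0.05 with no filter on level, with Xaf1, a pro-apoptotic factor, 2-fold higher in 9L (7.99 and 6.95) and Irgm1, an immunity-related GTPase, 2-fold lower (6.53 and 7.70).

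Secreted signals and their receptors held genes of large difference in both directions. In the TGF-beta and BMP list the median was -0.18 over 30 genes. Of these, 5 were 2-fold lower in 9L and 0 2-fold higher, against 2.51% and 2.15% of all genes. After Grem1 came Bmper, another extracellular BMP regulator, at 6.75 in 24L and 4.48 to 4.51 in the other 4 clones. Tgfb3, a TGF-beta ligand, read 9.18 in 24L and 7.21 to 7.95 elsewhere, and Inhba, the activin A subunit, read 8.24 in 24L and 6.68 to 7.27 elsewhere. These 4 secreted proteins were all highest in 24L, with the other 4 clones below. Gas1, a hedgehog co-receptor, read 6.75 in 9L and 8.06 in 24L, and Flrt2, a membrane protein that binds FGF receptors, read 5.88 and 7.16. The FGF, hedgehog and Notch lists had medians of -0.43, -0.19 and -0.49 over 13, 10 and 6 genes, of which 8, 9 and 4 read lower in 9L. With no filter on level the FGF and Notch medians were -0.15 and 0.

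In the IGF system both ligands differed and in opposite directions. Igf1 was 7.96-fold higher in 24L, as given above, and Igf2 was 4.26-fold higher in 9L, at 7.59 against 5.50 in 24L, 5.50 in 4L, 4.55 in 12H and 5.79 in 15H. Igfbp5, the main IGF-binding protein stored in bone, read 9.18 in 9L and 7.15 in 24L, against 3.56 in 4L, 7.00 in 12H and 7.37 in 15H. Igfbp2, another binding protein, read 6.84 in 9L and 8.43 in 24L, against 9.18, 4.44 and 4.76. Igf2 and Igfbp5 were highest in 9L, whereas Igfbp2 and Igf1 were higher in 24L and 4L than in 9L. The list's median was -0.30 over 13 genes.

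Wnt ligands and receptors likewise split. The median was -0.10 over 19 genes. Of these, 4 were 2-fold higher in 9L and 2 2-fold lower, against 2.15% and 2.51% of all genes. Wnt10a, a ligand of the canonical pathway, read 6.37 in 9L and 4.38 to 4.73 in the other 4 clones, and the receptor Fzd5 read 7.59 in 9L and 6.17 in 24L. Fzd1, another receptor, read 7.50 in 9L and 8.99 in 24L, and Rspo2, a secreted amplifier of Wnt signals, read 6.64 and 7.89. Rspo3, of the same family, went the other way, at 7.64 in 9L and 6.61 in 24L, and was named after its values were seen. Among 19 Wnt targets and feedback genes the median was -0.55, with 15 lower in 9L and 3 higher. Ccn5, a matricellular protein, read 6.20 in 9L and 7.44 in 24L. Of the 3 genes higher in 9L, Nkd1, a feedback inhibitor, read 6.74 and 5.54, and Ccnd1, which encodes cyclin D1, read 6.80 and 5.68.

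Several signals to osteoclasts and to blood-forming cells were higher in 24L. Tnfrsf11b, which encodes osteoprotegerin, the decoy receptor for RANKL, read 5.36 in 9L and 7.34 in 24L, a 3.96-fold difference, against 7.26 in 4L, 6.50 in 12H and 5.68 in 15H. Cxcl12, the chemokine that holds blood stem cells in marrow, read 7.69 and 9.07, and Il18, a cytokine, 5.65 and 6.78. The list of osteoclast support genes had a median of -0.67 over 10 genes, with 6 of the 10 lower in 9L. In this list 4 were 2-fold lower in 9L and 1 2-fold higher, against 2.51% and 2.15% of all genes. With no filter on level the median was -0.05. In the chemokine and inflammation list 4 of 15 genes were 2-fold lower in 9L and 0 higher, against 2.51% and 2.15% of all genes. Vcam1 and Cxcl12 were among the 4. So were Cxcl1, a neutrophil chemokine, at 5.0 and 6.49, and Tnfaip3, an inhibitor of NF-kappa-B, at 5.47 and 6.67.

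Axon guidance genes, many of which also act between bone cells, had a median of -0.16 over 33 genes, with 9 of them 2-fold lower in 9L and 1, Robo1, 2-fold higher, against 2.51% and 2.15% of all genes. The list's middle was near that of all genes while its lower quartile reached -1.23. Slit2, a ligand of Robo receptors, read 5.79 in 9L and 8.13 in 24L, against 8.69 in 4L, 7.76 in 12H and 8.80 in 15H. Nrp1, the co-receptor neuropilin 1, read 4.88 in 9L and 6.89 in 24L, against 5.82 to 6.93, and Sema5a read 4.42 and 6.41, against 5.86 to 6.20. In Slit2, Nrp1 and Sema5a 9L was the clone apart, below all the others. Sema3a, a semaphorin of osteoblasts and osteocytes that restrains osteoclasts, read 7.47 in 9L and 9.02 in 24L, against 8.66 in 4L, 6.89 in 12H and 6.39 in 15H.

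Osteoblast and mineral genes showed members in each direction. Ibsp, bone sialoprotein, read 9.56 in 9L and 8.35 in 24L, against 2.24 in 4L, 11.80 in 12H and 11.52 in 15H. Sp7, the transcription factor osterix, followed the same order, with 8.0 in 9L, 7.05 in 24L, 2.68 in 4L, 9.98 in 12H and 9.41 in 15H. So did Mef2c, a transcription factor active at the Sost enhancer, with 9.14, 8.63, 6.80, 10.10 and 9.73. Panx3, a channel protein of osteoblasts and cartilage, read 8.69 in 9L, 7.56 in 24L, 2.69 in 4L, 10.92 in 12H and 10.30 in 15H. Galnt3, the glycosyltransferase that protects FGF23, read 7.45, 5.97, 5.41, 8.88 and 8.45 in the same sequence of clones. In these 5 genes 9L lay between 24L and the high-Sost clones. Pth1r, the receptor of parathyroid hormone, read 7.69 in both. Vdr, the vitamin D receptor, was low in 24L alone, at 6.01 against 7.33 to 7.39 in the other 4. Nt5e, which makes adenosine outside the cell, read 8.41 in 9L and 7.16 in 24L.

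Lower in 9L were Mgp, an inhibitor of mineralization (8.73 and 10.05 in 24L), Fam20c, the kinase of secreted phosphoproteins (6.66 and 7.69), and Runx1, a transcription factor of the Runt family (5.82 and 7.00). The osteoblast list had a median of -0.27 over 14 genes and the mineralization list 0.20 over 13. The osteocyte list had a median of -0.20 over 8 of 21 measured. In the osteocyte list Sema3a was the 1 gene 2-fold apart, against 4.66% of all genes. Pdpn, podoplanin of early osteocytes, read 8.97 in 9L and 9.20 in 24L. Runx2 and Spp1 are not analysed here.

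Genes of cell adhesion, contraction and mechanical signals were named in both directions. Itga10, an integrin that binds collagen, read 7.71 in 9L, 6.04 in 24L, 5.23 in 4L, 9.10 in 12H and 8.47 in 15H, and Itga11, the related alpha-11 chain, read 6.66 in 9L and 8.0 in 24L. Alcam, an adhesion molecule of the immunoglobulin family, read 5.44 and 6.67. Ccn2, a target of YAP and TGF-beta known as CTGF, read 5.41 in 9L and 7.24 in 24L, against 6.85, 4.97 and 6.23. Cavin2, a caveolar coat protein, read 4.82 and 7.07, against 7.97 in 4L and 3.35 and 3.33 in the high-Sost clones. P2rx7, an ATP-gated channel, read 7.19 in 9L and 5.05 in 24L. The list of 24 mechanosensing genes had a median of -0.12. Of 16 smooth muscle contractile genes, Actg2 was the 1 gene 2-fold apart, against 4.66% of all genes. In 12 of the 16 genes 24L stood above 4L, 12H and 15H, and in 8 genes 9L did. Over all genes the shares were 21.8% for 24L and 25.1% for 9L.

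Lists of growth and metabolism held few genes 2-fold apart, and so did the whole set, with 4.66% of all genes. In lists of these sizes a count of 0 is near that share. Among 39 cell cycle and replication genes, 28 read higher in 9L and 9 lower with a median of 0.23, and 0 were 2-fold apart. Cdc45, a replication helicase factor, had the widest gap, at 1.69-fold. Of 27 genes of cholesterol and fatty acid synthesis, 21 read higher in 9L with a median of 0.32 and 0 2-fold apart, and Dhcr7, the last enzyme of cholesterol synthesis, had the widest gap at 1.68-fold. Respiratory chain genes had a median of -0.04 over 26 genes, with Cox4i1, a subunit of cytochrome oxidase, 1.63-fold apart. The ribosomal protein list had a median of -0.16 over 9 genes, with Rplp0 1.72-fold apart. In the p53 list Perp and the kinase Plk2 (7.70 in 9L and 8.84 in 24L) were 2-fold lower in 9L, and Trp53inp1, a p53-inducible stress protein, was 2-fold higher (7.93 and 6.31). Nr4a1, an immediate early nuclear receptor that parathyroid hormone induces, read 8.20 in 9L and 6.68 in 24L, against 6.29 in 4L, 7.27 in 12H and 6.07 in 15H. The medians of the MEF2 and SIK list (0.07 over 14 genes), the PTH and cyclic AMP list (-0.01 over 16) and the immediate early list (-0.07 over 20) were near 0 and changed sign under alternatives.

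Of markers of neighbouring cell types, those of tendon and fibroblasts were at 6 or more for 10 of 19 measured genes, with a median difference of -0.29 and median levels of 8.68 in 9L and 8.77 in 24L, against 8.64 to 9.01 in the other 3 clones. Cd34, a surface sialomucin of stromal and blood progenitors, read 7.14 in 9L and 8.32 in 24L, and Scx, the tendon transcription factor scleraxis, read 8.30 and 7.71. Chondrocyte markers were at 6 or more for 2 of 20 genes, of which Sox9 read 7.78 in 9L and 7.02 in 24L and Col11a1 read 7.52 and 8.15. Adipocyte markers were at 6 or more for 4 of 18, and among them Cebpb read 7.54 and 6.58. Their part in the collagen and proteoglycan differences was not tested.

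Differences also followed the chromosomes. On 8 chromosomes (1, 3, 4, 6, 7, 15, 16 and 18) the median difference was above 0.1, on 7 (5, 8, 9, 10, 12, 19 and X) it was below -0.1, and on the other 5 it lay between. The medians ran from -0.26 on X, over 237 genes, to 0.25 on chromosome 15, over 370 genes. On chromosome 15, 294 genes (79.5%) read higher in 9L. There 23 were 2-fold higher in 9L and 10 were 2-fold lower, against 2.15% and 2.51% of all genes. On chromosome 8, 351 of 453 genes (77.5%) read lower in 9L. Set against the median of 4L, 12H and 15H, 9L stood at 0.31 on chromosome 15 and 24L at 0.04, and on chromosome 8 they stood at -0.26 and -0.01. Chromosome 9 had the other form, with 9L at 0.00 and 24L at 0.22.

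Within a chromosome the shift need not be even. On chromosome 2 the last 100 genes at the level, from Tti1 to Polr3k, had a median of 0.35 with 89 of them higher in 9L, and the 541 genes before them had a median of 0.02. In that stretch, which was chosen after its values were seen, 24L stood at -0.28 against the other 3 clones and 9L at 0.09. Running medians over 41 neighbouring genes were highest on chromosome 15 (0.42, from Rnd1 to Mfsd5) and lowest on X (-0.43, from Armcx2 to Eif1ax). With each chromosome's median subtracted, 145 genes were 2-fold higher in 9L and 189 higher in 24L. Of the genes named by rule, Gpnmb, Fam20c, Ccnd1, Il18, Timp1, Dusp6, Xaf1, Pgam1, Sdf2l1 and Maff were then under 2-fold.

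**Figure D5:**
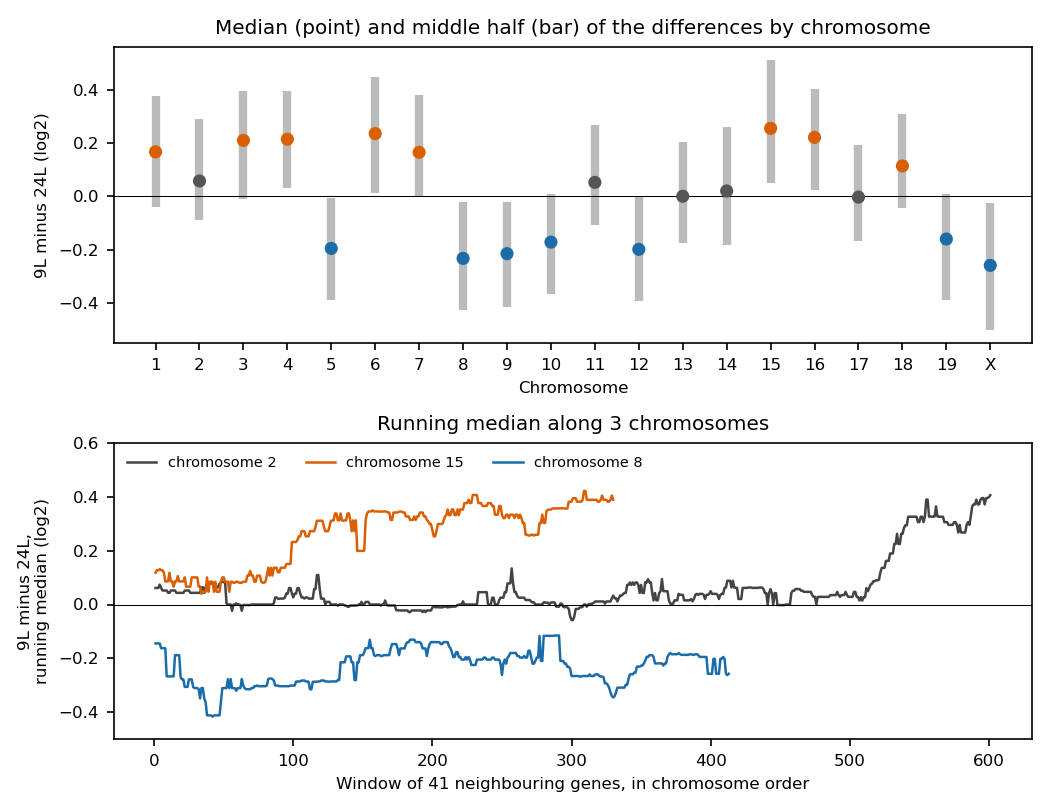
Upper panel, median (point) and quartiles (bar) of the log2 difference, 9L minus 24L, by chromosome; lower panel, running median over 41 neighbouring genes in chromosome order (window number on the horizontal axis) for chromosomes 2, 8 and 15. Chromosome 15 lies above 0 and chromosome 8 below it along their length, while chromosome 2 lies nearer to 0 until its last part, where it is highest.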

How the data were processed

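The deposited values are log2 expression per probe set. Per the submitters' processing notes, the tools were RMA, affy (version 1.36.1) and R (version 2.15.1), whose roles and order are not recorded. RMA gives all arrays 1 distribution, which takes out any shift that most genes of an array have in common. The chip definition is not given in the sources used here, nor are filters or the genome build. Of 25206 probe sets, 23185 had 1 gene in the platform table, all matched by Entrez number to a RefSeq table (GRCm38.p6) used for names, chromosomes and gene order, and 2021 were unnamed and left out. Array medians over named genes were 4.13 to 4.16. Precision is limited by the single array per clone.

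Differences, medians and counts were computed with Python 3.11.15, pandas 2.3.3 and numpy 2.4.6, drawn with matplotlib 3.10.9, and the steps were tested on simulated data. Fold differences are 2 raised to the log2 difference, and they understate those of dim genes. The rule named the 15 largest differences in each direction, up to 4 genes that were 2-fold apart (otherwise 1) from each of 45 lists, and a panel of 14, in all 126 genes. Predicted genes, sensory receptors and small RNAs were excluded only from the 15 largest, and the counts include them. Without predicted genes and receptor families, 373 of 7867 genes were 2-fold apart. Other genes given with values were chosen after these were seen. The genes, lists and rules were set with earlier results of these data known. Of 1189 listed genes, 1119 were measured and 70 are not analysed here. Alternatives were other levels and thresholds, other scalings, and chromosome medians subtracted.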

Additional observations from a re-analysis of the deposited data

How the results depend on the processing

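No paired analysis was possible because each clone has 1 array and the clones share no replicate numbers, and for the same reason no replicate could be left out. The count of 382 genes was 381 with arrays shifted to 1 median and 387 with quantile normalization again. Requiring 6 or more in both clones gave 188 genes (85 higher in 9L and 103 higher in 24L), and a mean of 6 or more in 4L, 12H and 15H, which does not use the compared clones, gave 238 (115 and 123). With no filter on level there were 624 (278 and 346), at 1.5-fold 1213 (616 and 597) and at 3-fold 130 (57 and 73). At 7 or more in either clone 116 were higher in 9L. With the mean of the other 3 clones as filter, only 9L was outside their range in 59 genes and only 24L in 69, and the margin of 0.5 is given with the main counts. Fewer genes pass the stricter filters by construction. List medians kept their sign under every alternative for collagens (-1.15 to -0.20), small proteoglycans (-1.20 to -0.31), matrix assembly (-0.47 to -0.28), unfolded protein response (0.43 to 0.46), hypoxia (0.25 to 0.43) and antigen presentation (0.67 to 0.85). For hypoxia every alternative gave a median under the main one of 0.51. The osteoblast, MEF2, PTH, chemokine, immediate early, Hox and chondrocyte lists changed sign under 1 or more alternatives. For the chemokine list this was 6 or more in both clones (0.06), an alternative added after the data were seen, and for the osteoblast list no filter on level (0.10). No chromosome median changed sign. The cause of these changes was not tested.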

Other observations

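The genes below were chosen after their values were seen, unless named by rule. Solute carriers, the membrane transporters of the cell, were 139 of the genes compared, with a median difference of 0.14. Of these, 10 were 2-fold higher in 9L and 5 2-fold higher in 24L, against 2.15% and 2.51% of all genes. Besides those already given, Slc13a5, a citrate transporter, read 8.91 in 9L and 7.04 in 24L, against 3.68 in 4L, 10.03 in 12H and 8.93 in 15H. Slc17a9, which loads ATP into vesicles, read 6.45 in 9L and 4.18 in 24L, against 3.95 in 4L, 5.33 in 12H and 5.59 in 15H. Of 9 glutathione S-transferases, Gstk1 read 6.18 in 9L and 3.58 in 24L, Gstm7 read 7.76 and 5.42, and Gsta4 read 4.92 and 6.28. The near-identical copies Apol9a and Apol9b, which the probes may not separate, read 9.45 and 8.89 in 9L and 8.20 and 7.31 in 24L.

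Of 9 imprinted genes at 6 or more in either clone, 4 were 2-fold apart, against 4.66% of all genes, and the list's median of -0.51 was 0 with no filter on level. Impact, a translation regulator, read 7.61 in 9L and 5.51 in 24L, and Igf2 was higher in 9L by nearly the same size (differences of 2.09 each). Mest read 7.78 in 9L and 9.40 in 24L, and Grb10, an adaptor that restrains insulin signalling, read 9.58 and 10.65. Of 58 protocadherins of the clustered families measured, 6 were at 6 or more and 3 were 2-fold apart, against 4.66% of all genes. Besides Pcdhgb1, Pcdhb20 read 5.02 in 9L and 6.17 in 24L, and Pcdhgb6 read 6.28 and 5.11, so the members differed in both directions.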
